A study of Mus musculus with 16 samples.

Results

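The 10 genes *Muc2*, *Fcgbp*, *Zg16*, *Clca1*, *Tff3*, *Agr2*, *Spink4*, *Spdef*, *Klk1* and *Ern2* are made mainly or strongly by goblet cells, the mucus-secreting cells of the colonic epithelium. They were picked by gene symbol, and all 10 were found among the 22396 symbols that both deposited tables hold. For each mouse, a gene's TPM (an abundance corrected for transcript length and for the size of the library) is the sum over its listed transcripts.

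The study asked what loss of the TNF receptor TNFR2 (gene *Tnfrsf1b*) in the gut epithelium does to healing after dextran sulfate sodium (DSS), a compound that injures the colonic lining. From the distal colon of each of 16 mice, epithelial cells bearing the surface protein EpCAM were sorted and made into a polyA RNA library. The control mice, genotype Tnfr2-f/f, carried loxP sites in both *Tnfrsf1b* alleles and no Cre, and the knockout-labelled mice, genotype Vil1::Cre;Tnfr2-f/f, carried in addition a Cre recombinase driven by the villin promoter, which is active in intestinal epithelial cells. The 4 groups were 3 controls and 4 knockout-labelled mice after 3% DSS for 6 days, and 4 controls and 5 knockout-labelled mice given water, all dissected on day 12 by the labels. The methods of the study give a somewhat higher DSS concentration and describe the uninjured mice as day 0. They also state that injured stretches of the DSS-treated colon were separated under a stereomicroscope, a selection without a counterpart in the uninjured colon. All 7 DSS-treated mice were female, from cages c and d. The water-treated mice were the 4 males of cage a and the 5 females of cage b, so treatment and cage cannot be told apart.

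*Tnfrsf1b* itself overlapped between the genotypes in each treatment. Its TPM lay between 13.3 and 22.2 in the DSS-treated controls and between 13.5 and 27.0 in the DSS-treated knockout-labelled mice, and between 11.1 and 15.5 and between 9.23 and 14.8 in the corresponding water-treated groups. The tables give no separate value for the floxed part of the gene, so the level does not check the deletion. *Epcam* lay between 566 and 712 TPM in the water-treated mice and between 894 and 1017 TPM after DSS. On the common scale used below for DSS against water, it was 625 to 781 and 762 to 837. Markers of other cells were present and their levels differed by treatment. Over 14 leukocyte markers the mean log2(rescaled TPM + 1) was 3.26 to 4.30 in the water-treated mice and 1.11 to 1.65 in the DSS-treated mice, and over 8 plasma cell markers it was 5.11 to 8.54 against 2.82 to 4.86. Summed over the leukocyte list, TPM was 825 to 1709 with water and 79.9 to 155 after DSS. Of its 14 genes, 0 to 4 were at 0 with water and 2 to 6 after DSS, and the defining leukocyte marker Ptprc lay at 7.65 to 29.2 TPM with water and 0 to 4.88 after DSS. Summed over the plasma cell list, TPM was 2762 to 148252 with water and 266 to 4196 after DSS. The part of these cells in the results below was not tested.

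Goblet cells fill the upper cell with granules of mucin and release them onto the surface. *Muc2* is the gel-forming mucin that builds the colonic mucus layer, and *Fcgbp*, *Zg16*, *Clca1* and *Tff3* are proteins secreted with it: *Fcgbp* is a large mucin-associated protein, *Zg16* a lectin-like protein that binds Gram-positive bacteria, *Clca1* a secreted metalloprotease of the mucus, and *Tff3* a trefoil peptide that helps the epithelium to restitute. *Agr2* is a protein disulfide isomerase family member of the endoplasmic reticulum needed to make mucin, and *Ern2* (IRE1 beta) senses stress there in mucus-making epithelia. *Spdef* is a transcription factor that drives goblet cell maturation. *Spink4* is a small secreted protein of the Kazal inhibitor family, and *Klk1* is the tissue kallikrein, a serine protease. In bulk RNA, fewer goblet cells and less RNA per goblet cell cannot be told apart.

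On GRCm38, with GENCODE M21 gene positions, *Muc2* lies at chr7:141690340-141754693, *Fcgbp* at chr7:28071236-28120862, *Zg16* at chr7:127050156-127087328, *Klk1* at chr7:44225360-44229618 and *Ern2* at chr7:122169893-122186207. *Clca1* lies at chr3:145003817-145032776, *Tff3* at chr17:31125306-31129646, *Spdef* at chr17:27714352-27728955, *Agr2* at chr12:35992907-36004087 and *Spink4* at chr4:40920052-40931395. The listed transcripts of a gene are its APPRIS principal isoforms, and the TPM of other isoforms is not used here. This matters most for *Muc2*, whose listed transcript of 2032 bases starts 56492 bases into the gene and covers its 3′ part alone. All of the 31-base windows of that transcript (100%) are also found in other *Muc2* isoforms, so its TPM is a share assigned by kallisto and is not the level of the whole gene. Most windows of the main listed transcripts of *Fcgbp* (99.6%), *Ern2* (97.9%), *Spdef* (95.2%), *Zg16* (93.7%) and *Klk1* (75.9%) are also found in other isoforms of the gene. Their TPM is thus also in part an assigned share. For *Klk1*, 47.1% of the windows are shared with Klk1b paralogs and pseudogenes, and for *Fcgbp* 15.7% are shared with 9530053A07Rik, which makes these values uncertain. The other 8 members share no window with another gene, and *Tff3* has 1 annotated transcript, which makes its level the plainest of the set.

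The promoters of 5 members were found in RefSeq's table on GRCm38.p6 (*Muc2*, *Fcgbp*, *Agr2*, *Spdef* and *Klk1*). Shown are the 250 bases before the start of *Muc2* and *Fcgbp*, whose levels were lower after DSS in both genotypes, and of *Agr2*, whose level was higher in controls, with matches to the E-box CAGNTG (the kind of site bound by *Atoh1*-type factors) and to the forkhead motif TGTTTNC (Foxa-type factors) in capitals. Both strands were searched, and the ETS core CCGGAT had no match in any of the 5.
Muc2, chr7:141690090-141690339, plus strand: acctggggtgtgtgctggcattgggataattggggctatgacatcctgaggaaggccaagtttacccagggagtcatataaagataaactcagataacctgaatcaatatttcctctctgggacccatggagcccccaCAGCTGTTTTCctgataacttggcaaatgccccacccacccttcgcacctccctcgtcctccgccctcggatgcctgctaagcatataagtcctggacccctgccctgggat
Fcgbp, chr7:28070986-28071235, plus strand: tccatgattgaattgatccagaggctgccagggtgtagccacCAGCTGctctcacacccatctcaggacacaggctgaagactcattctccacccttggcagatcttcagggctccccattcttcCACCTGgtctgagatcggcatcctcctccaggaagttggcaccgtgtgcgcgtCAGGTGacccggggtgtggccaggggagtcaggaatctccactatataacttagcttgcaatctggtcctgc
Agr2, chr12:35992675-35992924, plus strand: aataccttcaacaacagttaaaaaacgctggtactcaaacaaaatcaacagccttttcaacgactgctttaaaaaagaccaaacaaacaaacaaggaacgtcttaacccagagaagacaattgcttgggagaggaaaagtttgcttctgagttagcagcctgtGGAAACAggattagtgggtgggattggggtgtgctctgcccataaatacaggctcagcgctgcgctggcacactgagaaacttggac

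Counted back from the start, the *Muc2* window held an E-box at base 112 that overlaps a forkhead match at base 108. The *Fcgbp* window held 3 E-boxes, at bases 208, 125 and 72, and the *Agr2* window held 1 forkhead match, at base 87, and no E-box. *Klk1* had 2 E-boxes and *Spdef* no match to either. Windows with these letters are common: 44.8% of all 32851 promoters in the table held an E-box, 17.8% a forkhead match and 4.94% the ETS core over the same 250 bases. A match is a description of the sequence and no evidence of binding. The *Muc2* promoter stands at the start of the gene, far from the listed transcript.

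In the uninjured colon the secreted products were among the most abundant transcripts. By mean TPM in the 4 water-treated controls, *Zg16* was highest (1465 ± 655, SD, n = 4), followed by *Spink4* (1152 ± 267), *Agr2* (1017 ± 77), *Tff3* (933 ± 387), *Klk1* (701 ± 67.7) and *Clca1* (687 ± 578). *Fcgbp* (246 ± 129), the listed *Muc2* transcript (109.8 ± 51.6), *Spdef* (24 ± 5.24) and *Ern2* (11.5 ± 6.32) came next. From *Zg16* down to *Muc2*, neighbours in this order overlapped within their SD, and *Muc2*, *Spdef* and *Ern2* were each apart from the next. Ranked within each of the 9 water-treated mice, *Zg16* stood between place 21 and 109 of all genes, while the transcription factor *Spdef* stood between 1660 and 3014. Together the 10 genes made up 0.790% to 1.42% of the listed TPM in the water-treated mice. That total includes the plasma cell markers, which summed to 2762 to 148252 TPM in these mice.

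After DSS *Agr2* had the highest mean in both genotypes (1779.9 ± 267 TPM in the 3 controls and 1415 ± 174 in the 4 knockout-labelled mice). In the controls it overlapped within the SD with *Spink4*, the next in order (1274 ± 1104). In 1 of these controls, DSS control 3, *Zg16* (2710) and *Spink4* (2544) were above *Agr2* (2085). From *Tff3* down, the order by mean was that of the water-treated controls. *Agr2* took 13.2% to 18.5% of the summed TPM of the 10 genes in the water-treated mice, against 37.2% to 53.2% in 6 of the 7 DSS-treated mice and 20.1% in the other, DSS control 3. *Clca1* took 4.74% to 22.5% with water and 1.33% to 4.12% after DSS. These shares are taken within a mouse and need no scaling between the tables.

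DSS control 3 stood apart from the other 6 DSS-treated mice. All 10 members were at their highest DSS level in this mouse, where 32.9% of 10899 genes were, and its summed TPM of the 10 genes was 10383 against 2767 to 4177 in the others. Its levels were above the next highest DSS-treated mouse by 3.68 times for *Tff3*, 3.29 times for *Muc2*, 3.12 times for *Zg16* and 2.52 times for *Spink4*, and by 1.14 times for *Agr2*. Markers of deep crypt secretory cells were also high in it (mean log2 6.44 against 3.45 to 4.75), as were tuft cell markers (1.61 against 0.424 to 1.34) and enteroendocrine cell markers (5.04 against 3.44 to 4.73), and its epithelial markers were at 8.87 against 8.36 to 8.72. It came from cage c, together with DSS knockout-labelled mouse 1, whose members were at the level of the other DSS-treated mice. Each comparison after DSS is therefore given with and without DSS control 3.

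**Figure D1:**
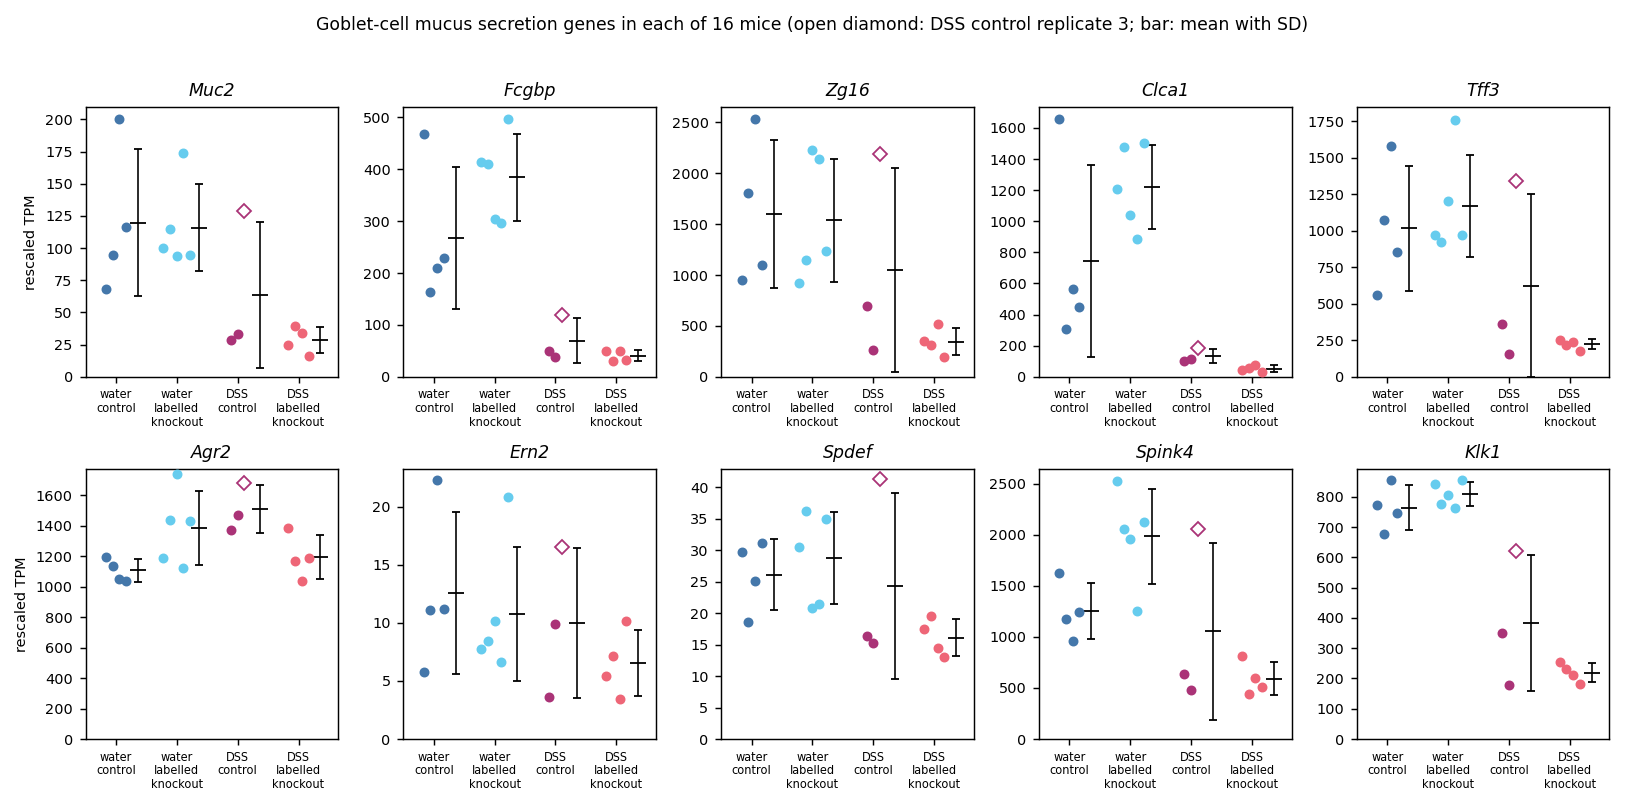
Rescaled TPM of each member (vertical axes, linear, from 0) in each of the 16 mice by group, 1 point per mouse, with the mean and SD as a bar beside the points (bars that would pass below 0 end there). The open diamond is DSS control 3, which is the highest DSS-treated mouse in all 10 panels. Clca1, Fcgbp and Klk1 show no overlap between the DSS-treated and the water-treated mice on this scale, whereas Agr2 overlaps in the knockout-labelled mice and Ern2 in both genotypes.

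The members were next compared between DSS and water. The tables were normalized apart, so all 16 mice were brought to a common scale by median-of-ratios factors (1.13 to 1.24 for DSS and 0.905 to 0.940 for water), and levels are given without a test. Among controls, 9 of 10 members had a lower mean after DSS, with a median log2 difference of -1.06, where the median over 11241 genes was 0.01 and 49.1% of them were lower. For 3 members every DSS-treated control lay below every water-treated control (background 14.2%), and *Agr2* lay above (background 10.6%). Without DSS control 3 the median was -1.69, 8 of 10 members did not overlap on the low side (background 26.4%), *Agr2* alone was above (background 24.8%), and 9 of 10 means were lower (background 51.5%). In the knockout-labelled mice all 10 means were lower (background 50.2%), with a median of -1.95, and 8 of 10 members did not overlap (background 18.1%), with 0 above (background 17.4%). With both genotypes together, 3 of 10 members were below in all 7 DSS-treated mice (background 7.04%) and 0 above (background 4.49%). Without DSS control 3 these were 7 (background 12%) and 0 (background 12.2%), and 9 of 10 means were lower (background 50.4%), as they were with it (background 49.5%). The counts depended on the scale. In controls 2 members were below with TPM as deposited (background 8.37%) and 2 at the same listed total (background 9.47%). Scaled to epithelial markers 3 were below (background 9.31%), and by ranks 2 (background 10.3%). In the knockout-labelled mice these counts were 7 (background 10.3%), 6 (6.79%), 7 (10.8%) and 5 (13.1%).

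Markers of several other cell types were lower with the members. *Reg4*, *Mptx1* and *Slc12a8* of the deep crypt list below are also among the further goblet-cell genes treated later. All 6 deep crypt secretory cell markers had a lower mean after DSS (median log2 difference -1.47 in controls, -1.99 without DSS control 3 and -2.81 in the knockout-labelled mice), as did all 8 surface colonocyte markers (-1.02, -0.87 and -1.04) and all 8 fibroblast markers (-1.41, -1.39 and -0.64). Of the 12 general epithelial markers, 10 were lower in controls and 9 in the knockout-labelled mice (medians -0.40 and -0.34). *Epcam*, the marker used for sorting, was not among these and had a higher mean after DSS (0.24 in either genotype). Enteroendocrine markers were lower in 4 of 8 in either genotype. Of the 4 tuft cell markers that averaged 1 TPM or more, 2 were lower in controls and 3 in the knockout-labelled mice. Of the 6 endothelial markers, 3 and 4 were lower (medians 0.03 and -0.05). The part of these cells in the members' lower level was not tested.

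**Figure D2:**
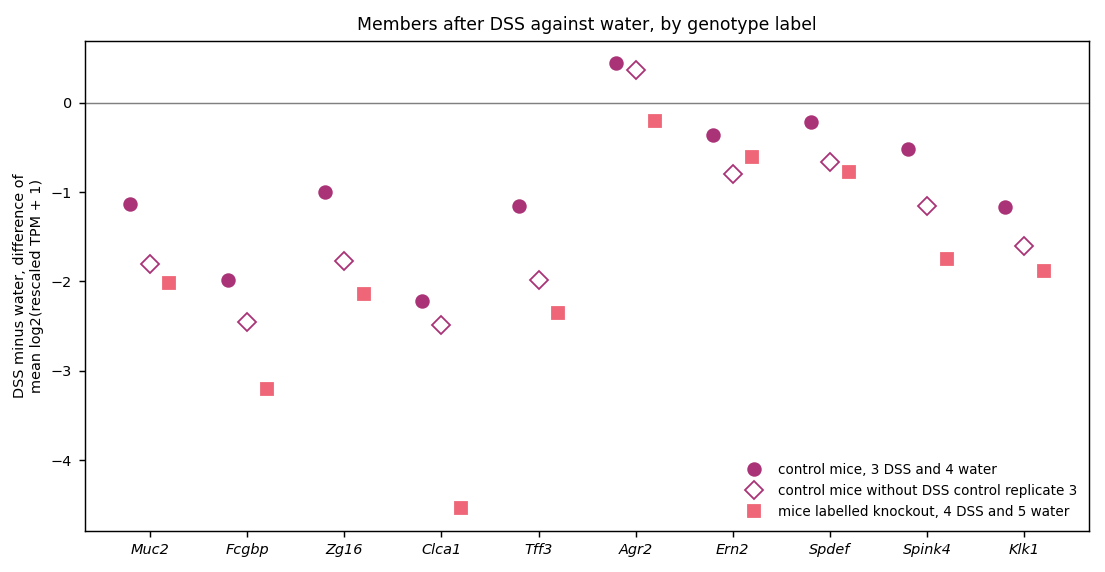
Difference of the mean log2(rescaled TPM + 1) between DSS-treated and water-treated mice (vertical axis) for each member, for controls (filled circles), controls without DSS control 3 (open diamonds) and knockout-labelled mice (squares), with no test. Clca1 and Fcgbp lie lowest in all 3 sets, and Agr2 lies at or above -0.20.

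Among the secreted mucus proteins, *Clca1* had the largest difference. Its rescaled TPM was 98.8, 114 and 186 in the 3 controls after DSS and 44.4, 59.4, 78.2 and 31.3 in the 4 knockout-labelled mice after DSS, against 1655, 307, 564 and 451 in the 4 controls on water and 1207, 1475, 1039.7, 885 and 1506 in the 5 knockout-labelled mice on water. The highest DSS-treated mouse, DSS control 3, was below the lowest water-treated mouse. The log2 difference was -2.22 in controls and -4.54 in the knockout-labelled mice, or 4.66 and 23.3 times lower after DSS, and it was -2.49 in controls without DSS control 3.

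*Fcgbp* followed the same order. It measured 49.5, 39 and 119 in the 3 controls after DSS and 50.7, 29.6, 50.6 and 33.4 in the 4 knockout-labelled mice after DSS, and 468, 164, 209 and 229 in the 4 controls on water and 414, 411, 304, 296 and 497 in the 5 knockout-labelled mice on water. Here too no DSS-treated mouse reached a water-treated one, with log2 differences of -1.99 in controls, -2.46 in controls without DSS control 3 and -3.21 in the knockout-labelled mice. *Clca1* and *Fcgbp* were the members in which DSS control 3 stayed farthest below the uninjured range, although it was the highest of its group.

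*Muc2*, by its listed 3′ transcript, measured 28.9, 33.1 and 129 in the 3 controls after DSS and 24.7, 39.2, 34.1 and 16 in the 4 knockout-labelled mice after DSS. With water it was 68.5, 94.5, 200.2 and 116 in the 4 controls on water and 99.9, 115, 94.1, 174 and 95 in the 5 knockout-labelled mice on water. Apart from DSS control 3, whose value lay inside the uninjured range, the DSS-treated mice were all below the water-treated mice. The log2 difference in controls was -1.13, and -1.81 without that mouse, and it was -2.02 in the knockout-labelled mice.

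*Zg16* measured 699.7, 269 and 2185 in the 3 controls after DSS and 352, 315, 518 and 199 in the 4 knockout-labelled mice after DSS, against 956, 1808, 2529 and 1102 in the 4 controls on water and 918, 1145, 2233, 2145 and 1238 in the 5 knockout-labelled mice on water. *Tff3* measured 365, 158 and 1343 in the 3 controls after DSS and 254, 219, 239.7 and 177 in the 4 knockout-labelled mice after DSS, against 562, 1073, 1578 and 857 in the 4 controls on water and 973, 925, 1207, 1761 and 972 in the 5 knockout-labelled mice on water. For both, DSS control 3 lay within the range of the water-treated mice and the other 6 DSS-treated mice lay below it. Leaving that mouse out moved the log2 difference in controls from -0.99 to -1.77 for *Zg16* and from -1.16 to -1.98 for *Tff3*. In the knockout-labelled mice the differences were -2.14 and -2.35.

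The secreted protease and the inhibitor family member were lower as well. *Klk1* measured 351, 178 and 621 in the 3 controls after DSS and 255, 230.3, 213 and 180.4 in the 4 knockout-labelled mice after DSS, and between 677 and 857 in all 9 water-treated mice, so that no DSS-treated mouse overlapped them on this scale, with log2 differences of -1.17 in controls (-1.60 without DSS control 3) and -1.89 in the knockout-labelled mice. With TPM as deposited, DSS control 3 (770.1) lay inside the range of the water-treated mice (621 to 788). Over the 9 water-treated mice together *Klk1* was also the member that varied least. Among the water-treated controls alone *Agr2* varied less (SD of the log2 level 0.095 against 0.14 for *Klk1*). *Spink4* measured 634, 483 and 2052 in the 3 controls after DSS and 814, 439.8, 600.1 and 511 in the 4 knockout-labelled mice after DSS, and 961 to 2526 with water. Its difference was -0.52 in controls, -1.15 without DSS control 3 and -1.75 in the knockout-labelled mice.

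The genes of the endoplasmic reticulum and of goblet cell maturation differed less between the treatments. *Agr2* measured 1375, 1473 and 1681 in the 3 controls after DSS and 1384, 1169.9, 1036 and 1187 in the 4 knockout-labelled mice after DSS, and 1039.8 to 1738 with water. The DSS-treated controls were all above the water-treated controls (log2 difference 0.45, and 0.37 without DSS control 3), whereas the knockout-labelled mice overlapped (-0.20). The sign of the latter depended on the scale, since it was 0.16 with TPM as deposited, 0.12 when scaled to epithelial markers and 0.79 by ranks. *Ern2* was low throughout, from 3.43 to 16.5 after DSS and from 5.73 to 22.3 with water, and its groups overlapped (log2 differences -0.36 in controls, -0.80 without DSS control 3 and -0.61 in the knockout-labelled mice).

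*Spdef* measured 16.4, 15.2 and 41.3 in the 3 controls after DSS and 17.5, 19.5, 14.5 and 13 in the 4 knockout-labelled mice after DSS, and 18.6 to 36.3 with water. Its difference was -0.22 in controls, -0.66 without DSS control 3 and -0.78 in the knockout-labelled mice, where the groups did not overlap on this scale and did with TPM as deposited. In controls the sign turned to 0.12 with TPM as deposited and to 0.10 when scaled to epithelial markers. TPM as deposited shifted the median of all genes by 0.32 in controls and by 0.30 in the knockout-labelled mice.

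Of 60 further goblet-cell genes listed by role, 52 averaged 1 TPM or more, and 32 of these had a lower mean after DSS in controls and 37 in the knockout-labelled mice (medians -0.22 and -0.43). The roles differed in direction. All 8 measured secreted products were lower in the knockout-labelled mice (median -2.66), and 7 of 8 in controls (-1.25). *Mptx1*, a mucosal pentraxin, had a mean rescaled TPM of 609 in DSS-treated and 5465 in water-treated controls, and 60.4 against 8892 in the knockout-labelled mice. *Guca2a*, the guanylin precursor, was at 557 against 1022 and 363 against 914. *Sval1* was at 258 against 551 and 128 against 624.

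Enzymes that build mucin O-glycans pointed the other way, with 9 of 12 higher after DSS in each genotype (medians 0.54 and 0.57). *Galnt4*, which starts O-glycans, was at 50.9 against 28.3 in controls and 57.0 against 28.3 in the knockout-labelled mice, without overlap, while *Galnt7* (45.4 against 35.1) and *St6galnac6* (173 against 163) overlapped in controls. For the secretory pathway the medians were -0.14 and -0.29, but with TPM as deposited they were 0.19 and 0.06 (medians of all genes 0.32 and 0.30). *Xbp1*, a factor of the unfolded protein response, was at 101 against 186 and 110 against 294 without overlap on this scale. In controls the gap was narrow, from a highest value of 101.9 after DSS to a lowest of 103.2 with water. As deposited, its TPM overlapped in controls (115 to 125 against 94.2 to 257). *Xbp1* is also a plasma cell marker, and those markers were lower after DSS too. The chaperone *Hspa5* overlapped between treatments (412 against 531 in controls).

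Among fate factors, *Klf4* was lower after DSS (165 against 323 and 146 against 261) and *Foxa1* higher (44.3 against 30.5 and 45.7 against 27.3). Both were without overlap on this scale, whereas *Hes6* was at 32.6 against 32.3 in controls. As deposited, the TPM of *Klf4* overlapped in controls (139 to 274 against 232 to 368) and in the knockout-labelled mice (139 to 190 against 169 to 281). The medians over the 6 measured factors, -0.13 and -0.32, were 0.21 and 0.02 with TPM as deposited (medians of all genes 0.32 and 0.30). Genes of granule traffic had medians of -0.63 and -0.69. *Hepacam2* (36.7 against 59.0 in controls) and the granule SNARE *Vamp8* (38.0 against 58.8) did not overlap in either genotype on this scale, and *Rab3d* (37.6 against 42.7) overlapped in controls. As deposited, *Hepacam2* (35.1 to 55.6 against 45.8 to 70.9) and *Vamp8* (36.3 to 61.1 against 48.6 to 64.6) overlapped in controls too. The direction seen in 9 of the 10 members in controls was thus shared by 7 of the 8 other secreted products and 10 of the 13 granule genes, and by 3 of the 12 O-glycan enzymes. With TPM as deposited these counts were 7 of 8, 7 of 13 and 2 of 12, and the median over the 52 genes in controls was 0.12. On that scale 30.7% of all genes were lower in controls, and their median was 0.32.

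**Figure D3:**
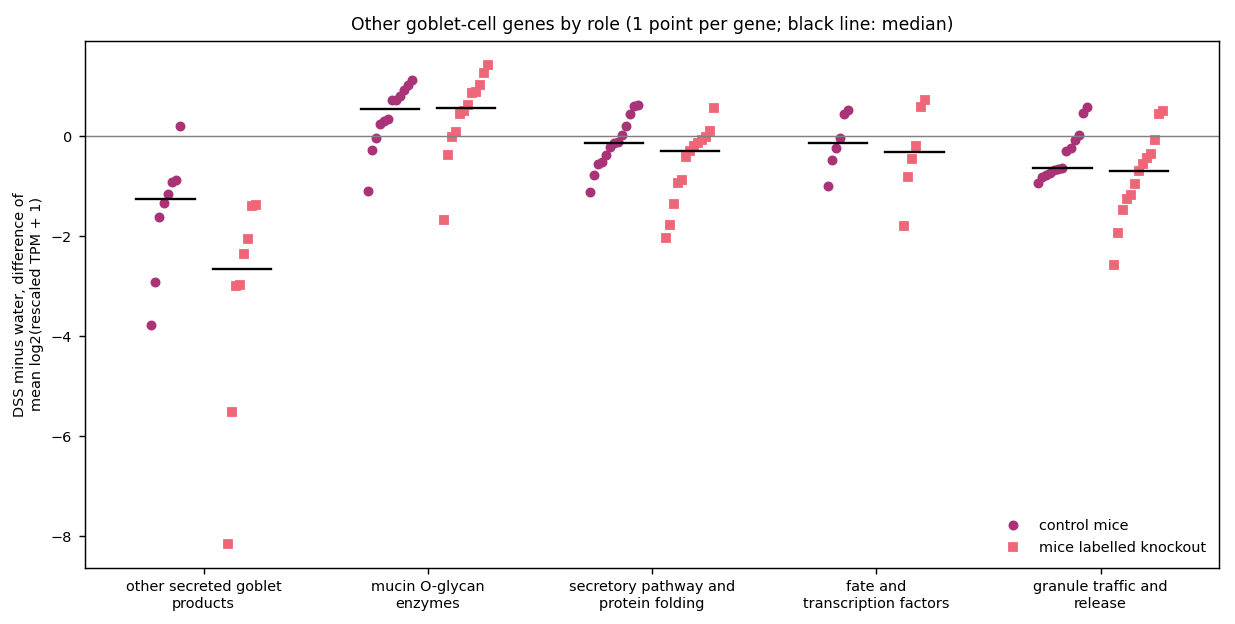
Difference of the mean log2(rescaled TPM + 1) between DSS-treated and water-treated mice (vertical axis) for the other goblet-cell genes that averaged 1 TPM or more, by role, for controls (circles) and knockout-labelled mice (squares), 1 point per gene with the median as a black line and no test. The secreted products lie lowest (medians -1.25 and -2.66) and the O-glycan enzymes above 0 (0.54 and 0.57).

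The effect of genotype was tested within each treatment by limma on log2(TPM + 1). The fit covered every gene that averaged 1 TPM or more, and p-values were adjusted by the Benjamini-Hochberg method. After DSS, 0 of 10 members were called (adjusted p under 0.05; background 0.00918%, 1 of 10899 genes), with 1 of 10 at an unadjusted p under 0.05 (background 2.65%, and 1 of 10 with 5.64% without DSS control 3). All 10 were lower in the knockout-labelled mice, where 47.2% of all genes were, with a median log2 difference of -0.61 and a range of -1.32 to -0.33. Without DSS control 3 the median was -0.11, 7 of 10 were lower (43.6% of all genes), and 0 of 10 were called (background 0.0184%). For 9 of the 10 members, leaving out this mouse alone brought the difference to between -0.36 and 0.11.

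*Clca1* was the exception. Its TPM was 114, 129 and 230.2 in the 3 controls and 52.8, 70.9, 92.4 and 36.7 in the 4 knockout-labelled mice (158 ± 63.2 and 63.2 ± 24, mean ± SD), and it was the 1 member of 10 whose knockout-labelled mice all lay below the controls (background 1.55%). None lay above (0 of 10, background 2.13%). The log2 difference was -1.32 (SE 0.35, 95% interval -2.14 to -0.50), at an unadjusted p of 0.00621 and a limma adjusted p of 1.000. Without DSS control 3 it was -1.01 (interval -1.83 to -0.19, adjusted p 0.813), and it was again the 1 member with all knockout-labelled mice below (background 5.03%), with 0 of 10 above (background 9.13%). Within cage d alone, the log2 mean of the 3 knockout-labelled mice was lower than that of the 2 controls by 0.95 (-0.95). *Agr2* was also lower there (-0.29), and the median over the 10 members was -0.17. In cage c, with 1 mouse of each genotype, the *Clca1* difference was -2.10, but its control was DSS control 3. In that pair *Muc2* (-2.41), *Zg16* (-2.69) and *Tff3* (-2.46) differed by more, and the other members by less. *Clca1* did not pass the test over all genes, with or without DSS control 3.

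For the other mucus proteins the intervals were wide. *Muc2* differed by -0.85 (-2.16 to 0.45) and by -0.14 without DSS control 3, *Zg16* by -1.17 (-2.75 to 0.41) and -0.36, and *Tff3* by -0.94 (-2.44 to 0.57) and -0.07. *Fcgbp* differed by -0.60 and -0.09. In TPM, *Tff3* was 421, 179 and 1665 in the controls and 303, 261, 283 and 208 in the knockout-labelled mice, which shows the 2 remaining controls on either side of the knockout range.

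*Agr2* had the narrowest interval, with a difference of -0.33 (-0.69 to 0.03) and -0.21 (-0.54 to 0.12) without DSS control 3. Its TPM was 1586, 1669.5 and 2085 in controls and 1647, 1397, 1223 and 1392 in the knockout-labelled mice, where a single mouse reached into the control range. With cage as a covariate the difference was -0.30 (-0.53 to -0.07, limma adjusted p 0.989). *Klk1* (-0.62 and -0.15) kept its direction without DSS control 3. *Spdef* (-0.43 and 0.06), *Spink4* (-0.56 and 0.11) and *Ern2* (-0.42 and 0.06) turned their sign.

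**Figure D4:**
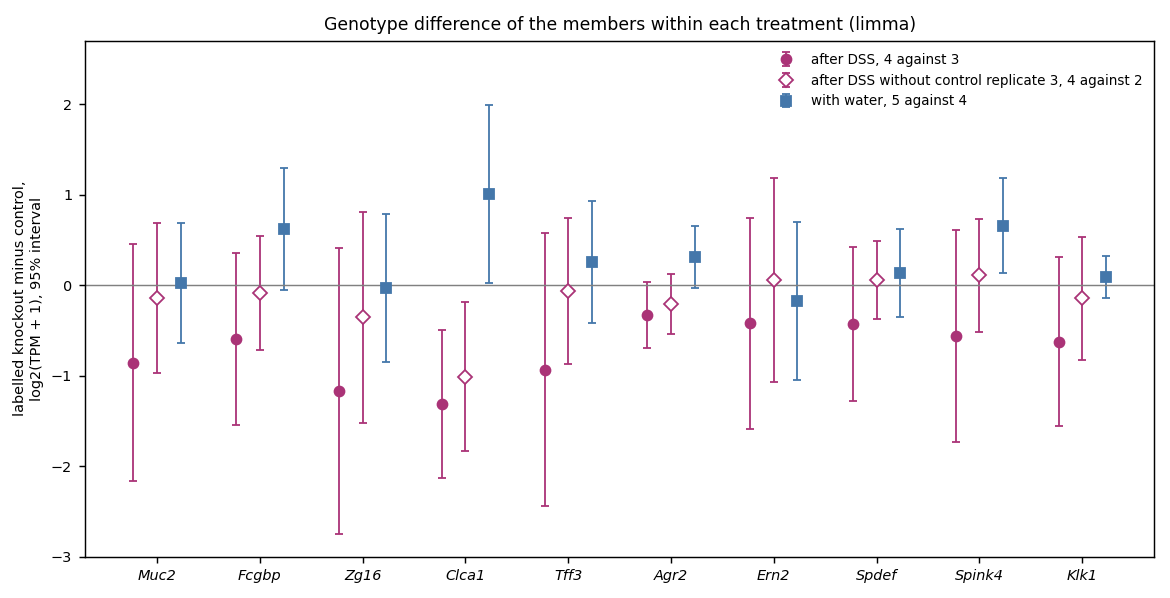
Log2 difference of TPM + 1 between knockout-labelled mice and controls (vertical axis) for each member, with 95% intervals from limma, after DSS (filled circles), after DSS without control 3 (open diamonds) and with water (squares). All 10 filled circles lie below 0, the open diamonds lie near 0 except Clca1 at -1.01, and the squares of Clca1 and Spink4 lie above 0 with intervals that do not reach it.

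With water, most members had a higher mean in the knockout-labelled mice, but not with quantile normalization, where 6 of 10 were lower. Of the 10 members 0 were called (background 0.00905%), 2 had an unadjusted p under 0.05 (background 5.28%), and 2 had a difference below 0 (background 49.8%), with a median of 0.19. No member had groups that did not overlap (0 of 10 below, background 0.878%, and 0 of 10 above, background 0.67%). The TPM of *Clca1* was 1542, 281, 515 and 412 in the 4 controls and 1129, 1346, 977, 801 and 1381 in the 5 knockout-labelled mice, and its difference was 1.00 (0.02 to 1.98, adjusted p 0.865). A single control, of cage a, lay above all 5 knockout-labelled mice, and the other 3 controls lay below them. The difference was 0.47 within cage a and 1.59 within cage b. *Spink4* was at 1515, 1078, 877 and 1138 and 2363, 1879, 1836, 1131 and 1948, a difference of 0.66 (0.13 to 1.18, adjusted p 0.865). *Fcgbp* (0.62) and *Agr2* (0.31) had intervals that reached 0, although with cage as a covariate *Fcgbp* was at 0.66 (0.03 to 1.299, limma adjusted p 0.787). *Muc2* (0.03), *Zg16* (-0.03) and *Klk1* (0.09) lay close to 0. Between cage b (females) and cage a (males), with genotype in the fit, 0 of 10 members were called (background 0.0362%) and 0 had an unadjusted p under 0.05 (background 6.83%), while 6 of 10 were lower in cage b (background 49.7%).

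The genotype difference after DSS minus that with water was tested as an interaction over all 16 mice, in which a scale between the tables falls into the treatment term. The interaction was below 0 for all 10 members (48.6% of all genes) with a median of -1.01, 4 had an unadjusted p under 0.05 (background 4.18%) and 0 were called (background 0.00889%). *Clca1* had the largest value, -2.32 (-3.64 to -0.99, unadjusted p 0.00209, limma adjusted p 0.949), and the other 3 at an unadjusted p under 0.05 were *Spink4* at -1.22, *Fcgbp* at -1.22 and *Agr2* at -0.64. *Tff3* (-1.19), *Zg16* (-1.14), *Muc2* (-0.88) and *Klk1* (-0.72) had larger values than *Agr2* and wider intervals. Without DSS control 3 the median was -0.32, 9 of 10 were below 0 (44.6% of all genes), and *Clca1* (-2.01, -3.43 to -0.59) and *Agr2* (-0.52, -0.98 to -0.07) had an unadjusted p under 0.05 (2 of 10, background 3.86%). Again 0 were called (background 0.0089%).

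Of the 60 other goblet-cell genes, 0 of 50 tested were called after DSS and 0 of 51 with water. At an unadjusted p under 0.05 there was 1 of 50 after DSS (2.65% of all genes), *Mptx1*, which was lower in the knockout-labelled mice (-3.57, SE 1.31), and without DSS control 3 there were 0 of 49 (5.64% of all genes). With water there were 6 of 51 (5.28% of all genes), all higher in the knockout-labelled mice. These 6 were *Atoh1* (0.58), the factor that commits cells to the secretory lineage, *Reg4* (0.84), *Selenom* (0.37), *Capn9* (0.44), *Bace2* (0.37) and *Gcnt3* (0.40). Of these, *Atoh1*, *Reg4*, *Bace2* and *Gcnt3* fell outside the rule for named genes and were named after their values were seen. For the interaction 0 of 52 were called and 5 had an unadjusted p under 0.05 (4.18% of all genes), all below 0, namely *Mptx1* (-4.38), *Reg4* (-1.80), *Atoh1* (-1.33), *Capn9* (-1.13) and *Bace2* (-0.61).

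The members did not vary together in the uninjured colon. Over the 9 water-treated mice, 26 of the 45 pairs had a positive Pearson r of log2(TPM + 1) and 19 a negative r, from -0.77 to 0.97. *Fcgbp* and *Clca1* ran closely together (r = 0.97, exact permutation p = 7.44e-05, adjusted over the 45 pairs 0.00335; rho = 0.95, p = 0.000353, adjusted 0.0159). The relation was 0.95 without the 2 mice farthest from the median of *Fcgbp*, 0.96 within genotypes, 0.98 within cage a and 0.97 within cage b. Here and below, the 2 farthest mice were picked by the first-named gene of a pair alone. In TPM, the control with the most *Clca1* (1542) also had the most *Fcgbp* of its group (437), and the control with the least *Clca1* (281) the least *Fcgbp* (150), as the lists above show.

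*Zg16* and *Tff3* formed the other pair below an adjusted p of 0.05 (r = 0.83, exact permutation p = 0.00202, adjusted 0.0454; rho = 0.78, p = 0.0172, adjusted 0.258), with r = 0.80 without the 2 farthest mice, 0.82 in cage a and 0.81 in cage b. *Muc2* went with *Tff3* (r = 0.84, exact permutation p = 0.00578, adjusted 0.0866), although less so by rank (rho = 0.48, p = 0.194), and it was 0.57 without the 2 farthest mice, 0.97 in cage a and 0.70 in cage b. All 12 pairs that join *Fcgbp*, *Clca1*, *Spink4* or *Spdef* with *Muc2*, *Zg16* or *Tff3* had a negative r, from -0.24 for *Muc2* with *Spdef* to -0.77 for *Zg16* with *Spdef*, but none passed the adjustment, and these sets were drawn up after the values were seen. Within cage a the 12 values lay between -0.98 and -0.50, and within cage b between -0.85 and 0.26, with 5 above 0, so the opposition was not seen throughout in cage b. Water control 3 had the most *Zg16*, *Muc2*, *Tff3* and *Ern2* of its group and water control 1 the most *Clca1* and *Fcgbp*, and both were males of cage a.

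After DSS all 45 pairs had a positive r over the 7 mice (median 0.80). For 4 pairs r passed the adjustment, and by rank 0 of 45 did. *Tff3* with *Klk1* led (r = 0.98 and rho = 0.96, exact permutation p = 0.000595 and 0.00278, adjusted 0.0268 and 0.101), followed by *Fcgbp* with *Spink4* (r = 0.97 and rho = 0.93, exact permutation p = 0.00198 and 0.00675, adjusted 0.0298 and 0.101). The other 2 were *Zg16* with *Tff3* (r = 0.96 and rho = 0.93, exact permutation p = 0.00179 and 0.00675, adjusted 0.0298 and 0.101) and *Zg16* with *Klk1* (r = 0.95 and rho = 0.86, exact permutation p = 0.00437 and 0.0238, adjusted 0.0491 and 0.214). Without the 2 mice farthest from the median of the first-named gene, r was 0.97, 0.79, 0.74 and 0.59 in the same order. Cages c and d held too few mice for a value each.

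The positive sign of all pairs depended on DSS control 3. Without it, 32 pairs were positive and 13 negative (median 0.21), and 0 passed the adjustment. *Tff3* with *Klk1* was at r = 0.97 and rho = 0.94 over these 6 mice (exact permutation p = 0.00417 and 0.0167, adjusted 0.0938 and 0.375), while *Fcgbp* with *Clca1*, the closest pair in the uninjured colon, was at 0.28. *Zg16* with *Ern2* was at r = -0.96 without that mouse (adjusted exact p 0.0938) and at 0.25 with it.

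**Figure D5:**
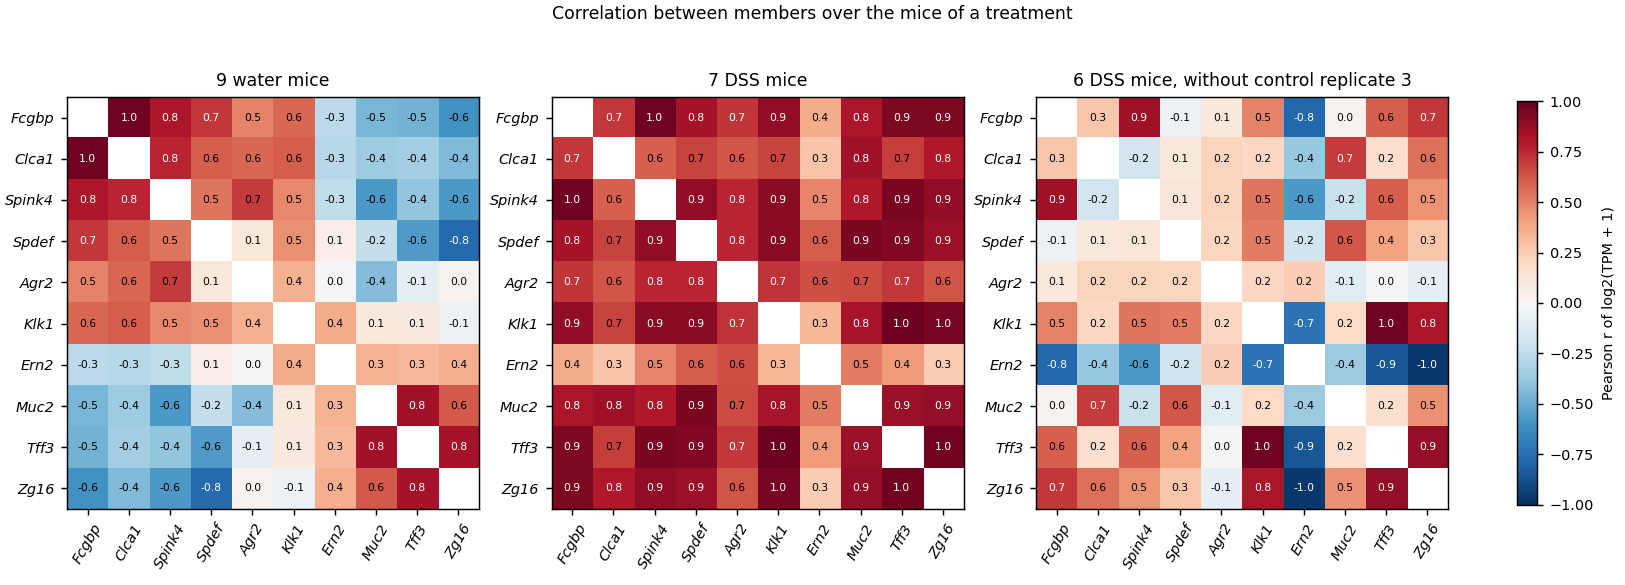
Pearson r of log2(TPM + 1) between each pair of members over the 9 water-treated mice, the 7 DSS-treated mice and the 6 DSS-treated mice without control 3 (colour scale from -1, blue, to 1, red). With water 26 pairs are positive and 19 negative, after DSS all 45 pairs are positive, and without control 3 the signs are mixed again (32 positive and 13 negative).

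Among 7180 genes that averaged 5 TPM or more, the genes whose deviations from the group means were most like the mean deviation of the 10 members over the 16 mice were *Capn9*, a calpain protease of the gut (Pearson r 0.90), *Atp2a3*, a calcium pump of the endoplasmic reticulum (0.89), *Hgfac* (0.88), *Eif6* (0.87), *Ramp1* (0.87) and *Selenom* (0.87). *Hgfac* is in the list of deep crypt secretory cell markers. These values are descriptive. Without DSS control 3 they were 0.66 to 0.78, and over the 9 water-treated mice 0.02 to 0.53. Among the members *Klk1* was the most like the mean of the set (0.90, and 0.86 with water). The least like it was *Agr2* over the 16 mice (0.31) and *Spink4* with water (-0.09, against 0.16 for *Agr2*). Each member is part of that mean, which raises its own value.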

How the data were processed

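Single-end RNA-seq of EpCAM+ colonic epithelial cells was analysed in 16 mice, whose groups come from the sample labels. The authors quantified the reads with kallisto and analysed them with sleuth (build mm10 per the processing notes of the submitters), and deposited TPM per transcript in a table for each treatment, scaled between the mice of that table and limited to APPRIS principal transcripts. Each table holds 28988 unique transcripts of 22396 symbols, and 385 repeated lines were dropped. The deposited p- and q-values, mean log counts and effect sizes of the authors' own comparisons were not used. Read depth is not given in the tables, so no counting error could be set, and the listed TPM summed to 487469 to 861109 a mouse. Nothing in the labels says more of the replicates than that each is a mouse.

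The 10 members and the gene lists were chosen with earlier results of these data known. TPM was summed per symbol, and log2(TPM + 1) of genes averaging 1 TPM or more was fitted by limma 3.58.1 (trend, R 4.3.3) with Benjamini-Hochberg adjustment over all genes fitted, within a treatment or, for the interaction, over all mice. A fold change on this scale understates changes of low genes. The tables were scaled apart, so DSS and water were compared as levels after median-of-ratios rescaling of all 16 mice, with no test. Pair correlations used exact permutation tests, two-sided, adjusted over 45 pairs (Python 3.11.15, scipy 1.17.1). The named genes were the members, the 3 genes of each role of the other goblet list with the highest mean TPM in water-treated controls, any other gene of that list called, the 6 genes most like the members, *Tnfrsf1b* and *Epcam*, and names outside this rule are stated as such. The alternatives were another pseudocount (0.1), other filters (none, 5 TPM), other scalings, cage, a replicate block, all mice in 1 fit, females alone and leaving out each mouse. The fits were tested on simulated data first.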

Additional observations from a re-analysis of the deposited data

Results flagged for a closer look

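Of 102 sets of values tested (the TPM of a named gene in a group of 4 or 5 mice), 7 held a mouse far from the rest of its group by Dixon's test, and chance alone gives about 5% of sets. None of the 7 was a member gene. The O-glycan enzyme *Galnt4* was at 20.8 TPM in water control 2, against 27.0 to 28.3 in the other controls, and at 69.0 TPM in DSS knockout-labelled mouse 3, against 66.8 to 67.1. *Galnt7* was at 58.2 TPM in that same mouse, against 52.3 to 53.0. The chaperone *Hspa5* was at 718 TPM in water knockout-labelled mouse 2, against 390 to 426, and *Foxa1* at 20.9 TPM in water knockout-labelled mouse 4, against 25.2 to 26.8. In DSS knockout-labelled mouse 1, *Selenom* was at 54.9 TPM, against 41.3 to 42.5, and the SNARE gene *Vamp8* at 42.9 TPM, against 35.9 to 36.7. The group of DSS-treated controls has 3 mice and was not tested, so DSS control 3 is described by its values alone.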

How the results depend on the processing

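Over the 4 comparisons fitted by limma, 64 alternative fits were made (13 to 19 a comparison), and 0 of 10 members were called in each, and of the single-gene values 612 kept their direction and 28 turned it. With quantile normalization, the genotype differences with water were -0.12 for *Muc2*, -0.12 for *Tff3*, -0.030 for *Agr2* and -0.21 for *Klk1*. Leaving out 1 mouse at a time gave, after DSS, -0.98 to 0.057 for *Ern2*, -0.70 to 0.058 for *Spdef* and -0.999 to 0.11 for *Spink4*, with the upper value in each case without DSS control 3. With water it gave -0.20 to 0.30 for *Muc2*, -0.24 to 0.22 for *Zg16*, -0.45 to 0.13 for *Ern2* and -0.018 to 0.23 for *Spdef*. Between cages it gave -0.26 to 0.27 for *Muc2*, -0.0635 to 0.11 for *Agr2* and -0.059 to 0.57 for *Ern2*, and for the interaction -0.80 to 0.23 for *Ern2*. The causes were not tested.

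The median log2 difference between DSS and water in the knockout-labelled mice, -1.95, was -1.60 with TPM as deposited, -1.38 at the same listed total, -1.63 scaled to epithelial markers and -1.12 by ranks, and -2.02 to -1.79 without 1 mouse. In controls, -1.06 became -0.71, -0.86, -0.73 and -0.54 under these scalings, and -1.69 (without DSS control 3) to -0.45 (without DSS control 2). With females alone on water the medians were -0.99 and -1.97. The DSS-treated mice had no males.

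Replicate numbers did not pair the mice, as deviations of same-numbered mice correlated at -0.20 to -0.03 after DSS and -0.08 to 0.09 with water. With the replicate block, 0 of 10 members were called in either treatment, *Zg16* with water was 0.023 and *Clca1* after DSS -1.09. The comparisons within cages, of both genotypes together of lists and pairs without DSS control 3, and of the other goblet-cell lists under other scalings were added after the data were seen. With 3 and 4 mice after DSS, the intervals of *Muc2*, *Zg16* and *Tff3* span more than the differences themselves.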
